A study of Mus musculus with 27 samples.

Results

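Transcripts of 34 proteasome genes were followed in 27 RNA-seq libraries of neutrophils and macrophages sorted from mouse mammary tumours. The genes were taken by symbol from a table of 9996 genes. Of the 37 symbols made of Psma, Psmb, Psmc or Psmd and a number, the 3 immunoproteasome subunits Psmb8, Psmb9 and Psmb10 were left out. The remaining 34 comprise 7 genes of the alpha ring, 7 of the beta ring, 6 ATPases of the base and 14 genes with Psmd symbols, which encode the other base subunits and the lid. Psmd5, Psmd9 and Psmd10 are known as chaperones that help to assemble the base and are released from the finished particle, so the symbol takes in a few genes that are not subunits.

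All mice carried K14cre;Cdh1F/F;Trp53F/F, in which Cre from the keratin 14 promoter deletes E-cadherin and p53 in epithelium and mammary tumours form. Control animals carried the same alleles, and ages were not stated. The 4 treatments were a control antibody, an antibody that blocks the receptor CSF-1R, cisplatin given together with the control antibody, and both agents at once (here the combination). Neutrophils were measured in 4, 4, 3 and 4 libraries of these treatments in that order, and macrophages in 4, 2, 4 and 2. The endpoint of mice given cisplatin was 1 day after injection 2. That of the rest was a tumour size of 100 mm2, so cisplatin and the endpoint cannot be told apart. CSF-1R signalling keeps many macrophages alive, and the macrophages of the anti-CSF-1R groups are those that remained to be sorted.

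The proteasome degrades proteins tagged with ubiquitin. Its core is a barrel in which rings of alpha subunits enclose rings of beta subunits, and Psmb5, Psmb6 and Psmb7 carry the protease sites of the standard particle. A regulatory cap binds the barrel: Psmc ATPases unfold substrates, Psmd2 and Psmd4 are among the subunits that bind ubiquitin or ubiquitin-like shuttles, and Psmd14 cuts ubiquitin chains off. In immune cells interferons can induce Psmb8, Psmb9 and Psmb10, which replace the standard catalytic subunits and favour peptides for MHC class I. The transcription factor Nfe2l1 is known to raise proteasome genes together through antioxidant response elements when proteasomes are short.

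Libraries held between 998265 and 3282448 decoded reads in neutrophils and between 1298449 and 7497952 in macrophages. Values are normalised reads, that is read counts divided by a size factor of the library. Many values in the deposited table had lost their decimal point, which was restored as described under the processing. Of the 918 member values, 652 had more than 1 possible place, and 4 were left out as unsure: Psma3 in neutrophil combination replicate 4, Psmb1 in neutrophil control replicate 3, and Psmb2 and Psmd13 in neutrophil combination replicate 2. No member value was at the lowest listed value of 1, and all 34 passed the filter on low values. Markers separated the sorted populations: 11 measured neutrophil markers summed to 22092 or more in every neutrophil library and to 1567 or less in every macrophage library. The neutrophil libraries nevertheless held macrophage transcripts, with 11 macrophage markers summing to 2671 to 5774 there and to 17048 to 36402 in macrophages. Csf1r itself averaged 1186 ± 130.4 (SD, n = 4) in control neutrophils and 2195 ± 290.1 (SD, n = 4) in control macrophages. Mast cell and basophil markers summed to 7858 in anti-CSF-1R macrophage replicate 2 and to at most 73 in any other library. Fewer cells of a type and less RNA per cell cannot be told apart in such bulk samples, and nothing in the labels says whether libraries came from separate mice, so p-values measure the spread between these samples only.

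Levels of different genes can be set side by side only per transcript length. Per kilobase of transcript, Psma7 of the alpha ring had the highest mean in both control groups, 127 ± 18.4 normalised reads in neutrophils and 249 ± 60.1 in macrophages (SD, n = 4 each). Psmb2 and Psmb4 of the beta ring followed in both cell types, at 108 ± 10.6 and 102 ± 20.6 in neutrophils and at 227 ± 22.3 and 186 ± 59.1 in macrophages (SD, n = 4 each). In both cell types Psma7, Psmb2 and Psmb4 each differed from the next of these 3 by less than the sum of their SDs. The lowest members were Psmd9 in neutrophils, 2.9 ± 1.04, and Psmd5 in macrophages, 5.05 ± 0.801 (SD, n = 4), both assembly chaperones. The highest member exceeded the lowest by 43.6-fold in neutrophils and 49.3-fold in macrophages. Median levels were higher for the beta ring than for the other roles in both cell types. In neutrophils they were 66.2 per kilobase for the beta ring, 31.8 for the alpha ring, 30.3 for the ATPases and 27 for the Psmd genes. In macrophages the same medians were 91.5, 64.3, 55.8 and 46.4. Transcript lengths were those of the principal coding transcript of GENCODE vM21. For Psma2, Psma3, Psmd5 and Psmd9 they are 2911, 2846, 4397 and 2597 bases, and a shorter transcript in the cells would raise the level per kilobase.

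**Figure D1:**
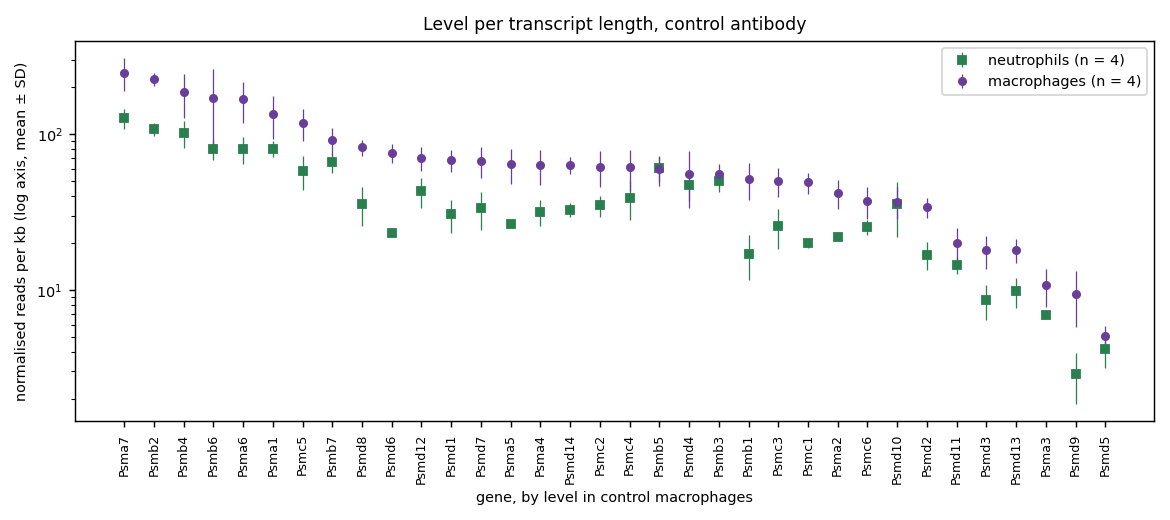
Mean normalised reads per kilobase of transcript (log axis, bars are SD) of each gene in the control antibody groups, neutrophils as squares and macrophages as circles, with 4 libraries each apart from Psmb1 in neutrophils, which has 3. Most genes lie higher in macrophages, while the symbols of Psmb5, Psmd10 and Psmb3 nearly coincide.

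Promoters were examined because the members are known as a group driven by antioxidant response elements. RefSeq gives the 250 bases before the start of 28 of the 34 members (GRCm38.p6), and Psmb1, Psmb2, Psmb7, Psmc3, Psmd3 and Psmd7 had no entry. The core of the element, TGACNNNGC on either strand, occurred in 5 of the 28 promoters (17.9%), beside 10.1% of all 27025 promoters of the same length and 12.5% of the 7653 whose gene is in the expression table. CCAAT, on either strand, occurred in 11 of 28 (39.3%), beside 34.5% and 36.1%. The 5 promoters with the core are shown as 120 bases each, 5′ to 3′ on the gene's strand with the core in capitals, because they let the catalytic genes Psmb5 and Psmb6, whose values diverge in the results, be read side by side. Psmb5 lies at chr14:54617996-54618115 (minus strand), Psmb6 at chr11:70525237-70525356 (plus), Psmc6 at chr14:45329574-45329693 (plus), Psmd12 at chr11:107479278-107479397 (plus) and Psmd9 at chr5:123228070-123228189 (plus).
Psmb5: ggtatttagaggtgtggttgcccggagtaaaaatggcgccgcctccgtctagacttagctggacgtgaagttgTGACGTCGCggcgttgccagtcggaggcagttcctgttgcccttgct
Psmb6: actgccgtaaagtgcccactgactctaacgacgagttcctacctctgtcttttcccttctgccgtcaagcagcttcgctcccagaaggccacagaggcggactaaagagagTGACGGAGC
Psmc6: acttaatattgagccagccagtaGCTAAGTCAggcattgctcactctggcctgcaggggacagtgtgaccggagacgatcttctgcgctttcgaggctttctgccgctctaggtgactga
Psmd12: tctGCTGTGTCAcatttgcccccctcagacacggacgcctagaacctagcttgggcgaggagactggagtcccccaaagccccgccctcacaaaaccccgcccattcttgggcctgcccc
Psmd9: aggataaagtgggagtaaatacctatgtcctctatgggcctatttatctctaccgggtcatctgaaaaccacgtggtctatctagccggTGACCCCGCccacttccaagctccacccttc
The core starts 9 bases before the annotated start in Psmb6, 31 in Psmd9, 47 in Psmb5, 227 in Psmc6 and 247 in Psmd12. A match describes these letters only, and no binding was measured.

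Macrophages carried more RNA of most proteasome genes than neutrophils in every treatment. In control tumours 24 of 34 members were higher in macrophages and 0 were lower (limma on log2 of value + 1, Benjamini-Hochberg adjusted p under 0.05 over all genes), beside 26.3% of all 9901 genes tested that were higher and 24.6% that were lower. The median member difference was 0.94 on the log2 scale, beside 0.13 over all genes. Under anti-CSF-1R 25 members were higher and 0 lower (21.2% of all genes in each direction, member median 1.02), under cisplatin 28 and 0 (29.2% and 27.3%, median 1.14), and under the combination 29 and 0 (22.7% and 23.8%, median 1.49). All-gene medians were 0.10 to 0.13. The same 23 members passed in all 4 treatments, a count that was not made over all genes. They were the alpha ring genes other than Psma2 and Psma3, Psmb1, Psmb2, Psmb4 and Psmb6 of the beta ring, Psmc1, Psmc2, Psmc3 and Psmc5 of the ATPases, and 10 Psmd genes. Psmb5, Psmd5, Psmd10 and Psmd11 passed in none of the 4. The comparison for anti-CSF-1R rests on 2 macrophage libraries: without replicate 1 of them 15 members passed, and without replicate 2 14 did.

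**Figure D2:**
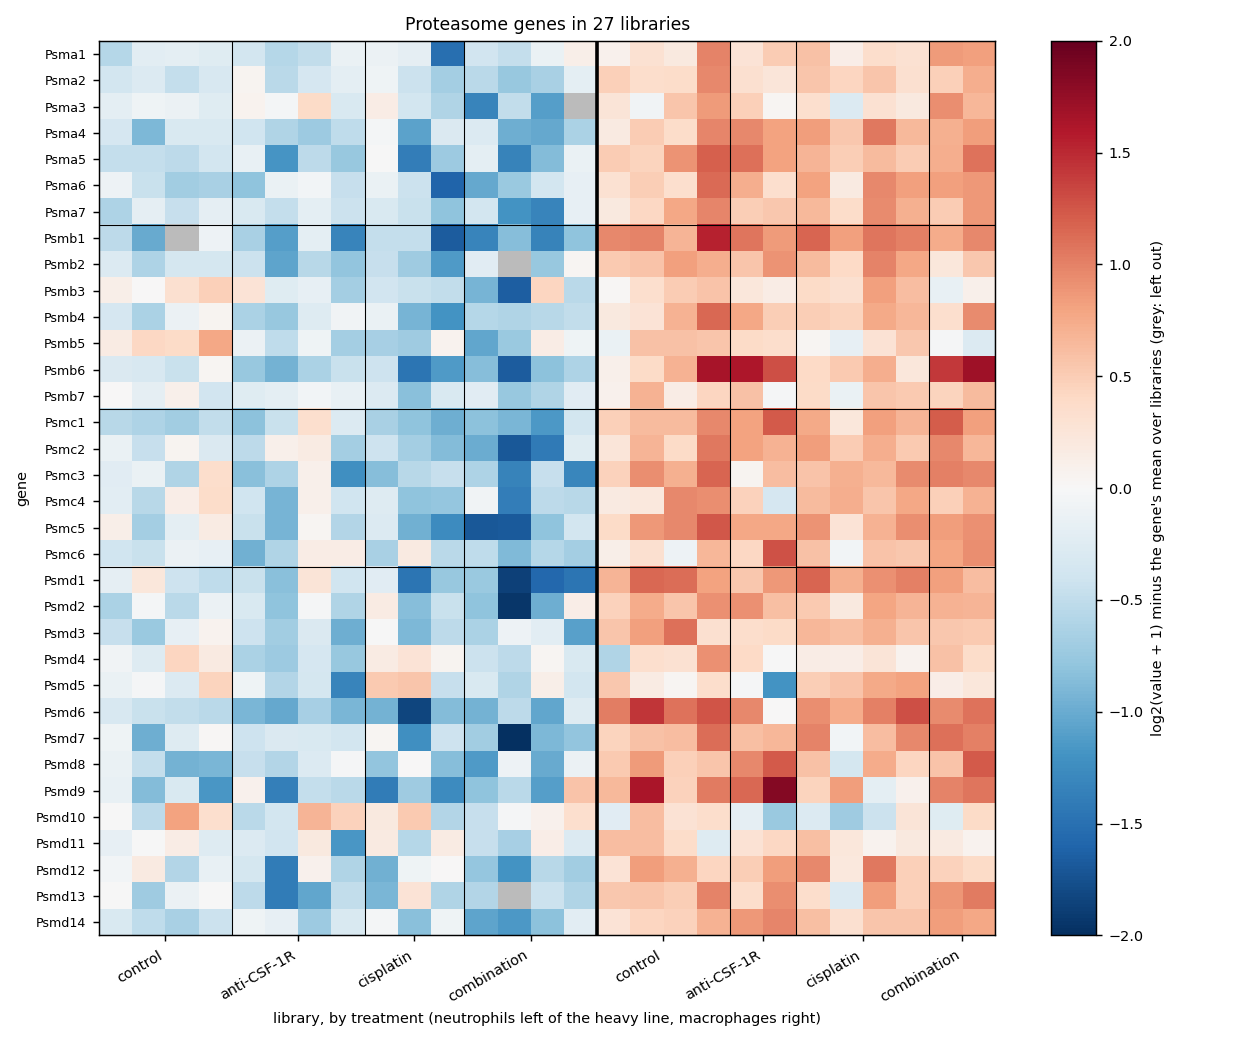
Heat map of log2(value + 1) of each of the 34 genes (rows, by symbol) in each of the 27 libraries (columns, by treatment), minus the gene's mean over libraries, with red above and blue below the mean and grey for the 4 values left out. Macrophage libraries, right of the heavy line, are red for most genes, and rows such as Psmd10 and Psmb5 show no such split.

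Genes of the alpha ring, which gates the barrel, were mostly higher in macrophages. In control tumours 6 of 7 passed, with differences of the 7 between 0.56 and 1.22, and under the combination all 7 passed, between 1.05 and 1.76. Psma2 read 63.7, 68, 59.2 and 65.7 in control neutrophils and 115, 105, 107 and 161 in control macrophages. Those groups did not overlap, and macrophages were higher by 0.90 ± 0.19 (log2 ± SE, adjusted p = 0.000496, limma). Psma4 read 38.4, 33.2, 30.1 and 35.4 in anti-CSF-1R neutrophils and 99.1 and 88.9 in the macrophages, a difference of 1.43 ± 0.30 (adjusted p = 0.000417, limma). Both macrophage libraries lay above every neutrophil library. Psma3 was the exception of this ring, with 0.56 ± 0.27 in control tumours (adjusted p = 0.0827, limma) and 1.76 ± 0.35 under the combination (adjusted p = 0.000232, limma). Its combination neutrophils read 8.31, 15.5 and 9.8, and the macrophages 43 and 35.5. GENCODE lists transcripts nearly identical to Psma3 at 4 other loci, to which its reads could have been assigned in part.

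In the beta ring 4 of 7 genes passed in control tumours and 5 of 7 under the combination. Psmb1, a structural subunit, read 29.6, 20.7 and 39.8 in 3 control neutrophil libraries and 84.3, 86, 68.9 and 126 in the macrophages, higher by 1.58 ± 0.31 (adjusted p = 0.000182, limma). Psmb2, which is also structural, read 101, 79.8, 96.2 and 95.3 against 176, 182, 218 and 203, higher by 1.06 ± 0.21 (adjusted p = 0.000187, limma). Neither gene's groups overlapped, and both passed in all 4 treatments. Psmb4 was higher by 1.34 ± 0.26 under cisplatin (adjusted p = 0.000106, limma), with neutrophils at 129, 74.5 and 61.3 and macrophages at 201, 193, 240.2 and 227. Psmb3 passed under cisplatin only (0.97 ± 0.32, adjusted p = 0.013, limma), and its differences in the other treatments lay between 0.13 and 0.65.

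Of the catalytic subunits Psmb6 passed in all 4 treatments, Psmb7 in 2 and Psmb5 in none. Psmb6, with the caspase-like site, read 62.2, 60.6, 55.5 and 77.8 in control neutrophils and 82, 99, 124 and 241 in control macrophages. Every macrophage library lay above every neutrophil library, replicate 4 of the macrophages far above its group, and the difference was 0.96 ± 0.28 (adjusted p = 0.006, limma). Under anti-CSF-1R the neutrophils read 44.7, 39.1, 48.6 and 55.3 and the macrophages 234 and 188, and under the combination 41.6, 23.2, 42.5 and 49.4 against 204 and 248. These differences were 2.15 ± 0.34 (adjusted p = 2.37e-05) and 2.54 ± 0.34 (adjusted p = 1.99e-06, limma), the largest of all members in both treatments. Under cisplatin it was 1.47 ± 0.30 (adjusted p = 0.000234, limma).

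Psmb5, with the chymotrypsin-like site, read 44.4, 53.2, 51.8 and 68.5 in control neutrophils and 36.2, 60.0, 59.9 and 58.6 in control macrophages. The groups overlapped, and the difference of -0.03 had a 95% interval of -0.59 to 0.52 (adjusted p = 0.927, limma). In the other treatments Psmb5 differed by 0.71 ± 0.33 under anti-CSF-1R (adjusted p = 0.086), 0.61 ± 0.29 under cisplatin (0.0764) and 0.29 ± 0.33 under the combination (0.495, limma). Without neutrophil cisplatin replicate 3, the cisplatin difference was 0.86 with an adjusted p of 0.0268. Psmb7, with the trypsin-like site, read 82.9, 72.4, 88.8 and 62.9 against 87.5, 134, 91.6 and 112 in control tumours, where 0.45 ± 0.21 did not pass (adjusted p = 0.0792, limma). It passed under cisplatin (0.80 ± 0.23, adjusted p = 0.00502) and the combination (0.99 ± 0.26, adjusted p = 0.00344, limma). With quantile normalisation the control difference of Psmb7 was 0.61 and passed (adjusted p = 0.0246). Reads of Psmb7 overlap those of its antisense neighbour Nek6 over 405 bases, and Psmb5 has a near-identical copy at 1 other locus, so their counts are less certain than those of Psmb6.

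**Figure D3:**
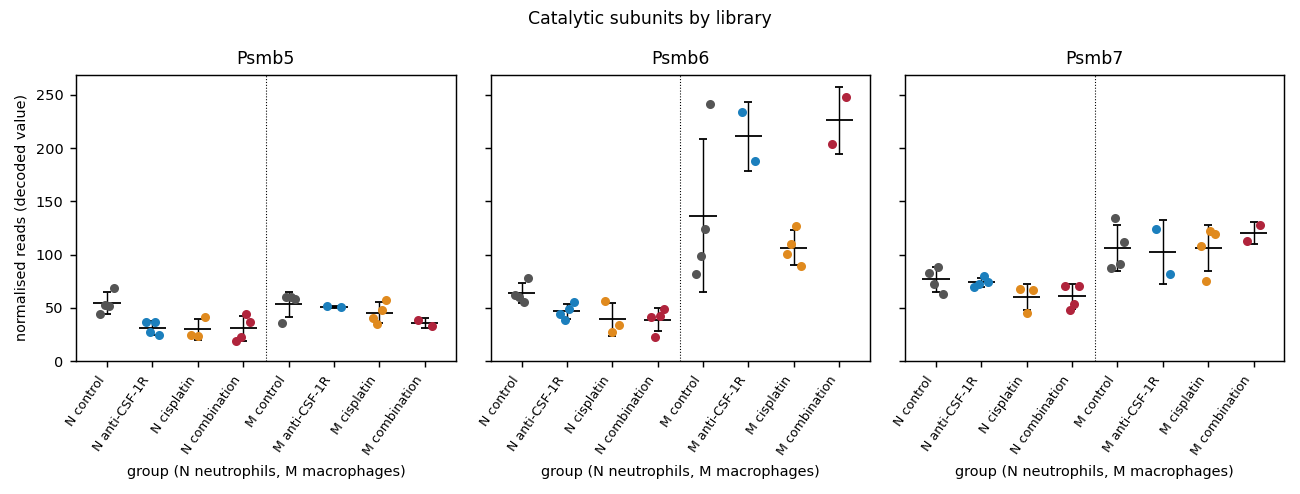
Normalised reads of Psmb5, Psmb6 and Psmb7 in each library (points) by group, neutrophils (N) left and macrophages (M) right of the dotted line, with the group mean (line) and SD (bar). Psmb6 reaches 188 to 248 in the anti-CSF-1R and combination macrophages and in control macrophage replicate 4, while Psmb5 is at most 68.5 in any library.

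All 6 ATPases of the base passed under cisplatin and under the combination, and 4 and 5 of them in control and anti-CSF-1R tumours. Psmc1 was higher by 1.26 ± 0.24, 1.32 ± 0.29, 1.43 ± 0.26 and 1.82 ± 0.29 in control, anti-CSF-1R, cisplatin and combination tumours (adjusted p at most 0.000733 in each, limma). It read 32.6, 31, 29.6 and 34.2 in control neutrophils and 67.3, 75.4, 75.1 and 95.4 in the macrophages, with no overlap. Psmc2 under the combination read 35.3, 21.3, 26.1 and 60.4 in neutrophils and 139 and 113 in macrophages, higher by 1.89 ± 0.32 (adjusted p = 4.17e-05, limma). The median difference of the ATPases was 0.88 in control tumours and 1.86 under the combination.

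Among the lid and other base genes, Psmd6, a lid subunit, had the smallest adjusted p in control and cisplatin tumours. It read 35.5, 32.5, 31.5 and 30.5 in control neutrophils and 91.6, 123, 95.7 and 109 in the macrophages, higher by 1.65 ± 0.25 (adjusted p = 5.17e-06, limma). With cisplatin the neutrophils read 22.7, 11.8 and 24.2 and the macrophages 86.4, 76, 91 and 111, higher by 2.21 ± 0.27 (adjusted p = 1.83e-07, limma). Macrophages lay above neutrophils in every library of both treatments. Psmd8 of the lid read 75.5, 59.1, 42.6 and 43.5 against 120.0, 150.1, 116 and 122 in control tumours, higher by 1.22 ± 0.28 (adjusted p = 0.000823, limma). Psmd14, the deubiquitinating subunit, read 66.1, 62.6, 41.7 and 56.4 against 128 and 139 under anti-CSF-1R and was higher by 1.24 ± 0.27 (adjusted p = 0.000702, limma). Under the combination its neutrophils read 33.3, 31, 39.2 and 60.4 and its macrophages 126 and 120.1, a difference of 1.61 ± 0.27 (adjusted p = 3.34e-05, limma). Psmd1, the large scaffold of the base, was higher by 1.77 ± 0.29 under cisplatin (adjusted p = 1.46e-05) and by 2.13 ± 0.33 under the combination (adjusted p = 1.11e-05, limma). Psmd7, the lid partner of Psmd14, read 39.5, 15.5, 34.3 and 37.1 against 139.6 and 131 under the combination, higher by 2.15 ± 0.36 (adjusted p = 3.76e-05, limma). Its groups did not overlap, nor did those of Psmd14 in either treatment.

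Of the 4 genes that passed in no treatment, 3 have Psmd symbols, and Psmd5 and Psmd10 are assembly chaperones. Psmd10 read 43, 29.6, 75.9 and 54.6 in control neutrophils and 36.6, 66.5, 53 and 55.2 in control macrophages (0.11, 95% interval -0.56 to 0.77, adjusted p = 0.798, limma). Psmd5 differed by 0.27 (interval -0.37 to 0.90) and the lid subunit Psmd11 by 0.42 (-0.14 to 0.97) in control tumours. These groups overlapped, and the intervals do not show that the cell types are alike. The third chaperone, Psmd9, went with the majority at low levels: 10.4, 5.91, 9.25 and 4.63 in control neutrophils and 18.8, 38.1, 16.5 and 25.1 in macrophages, higher by 1.57 ± 0.38 (adjusted p = 0.00142, limma). GENCODE places an antisense transcript across 1849 bases of Psmd9, and the counting was not stated to use strand, so reads of the pair cannot be separated.

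**Figure D4:**
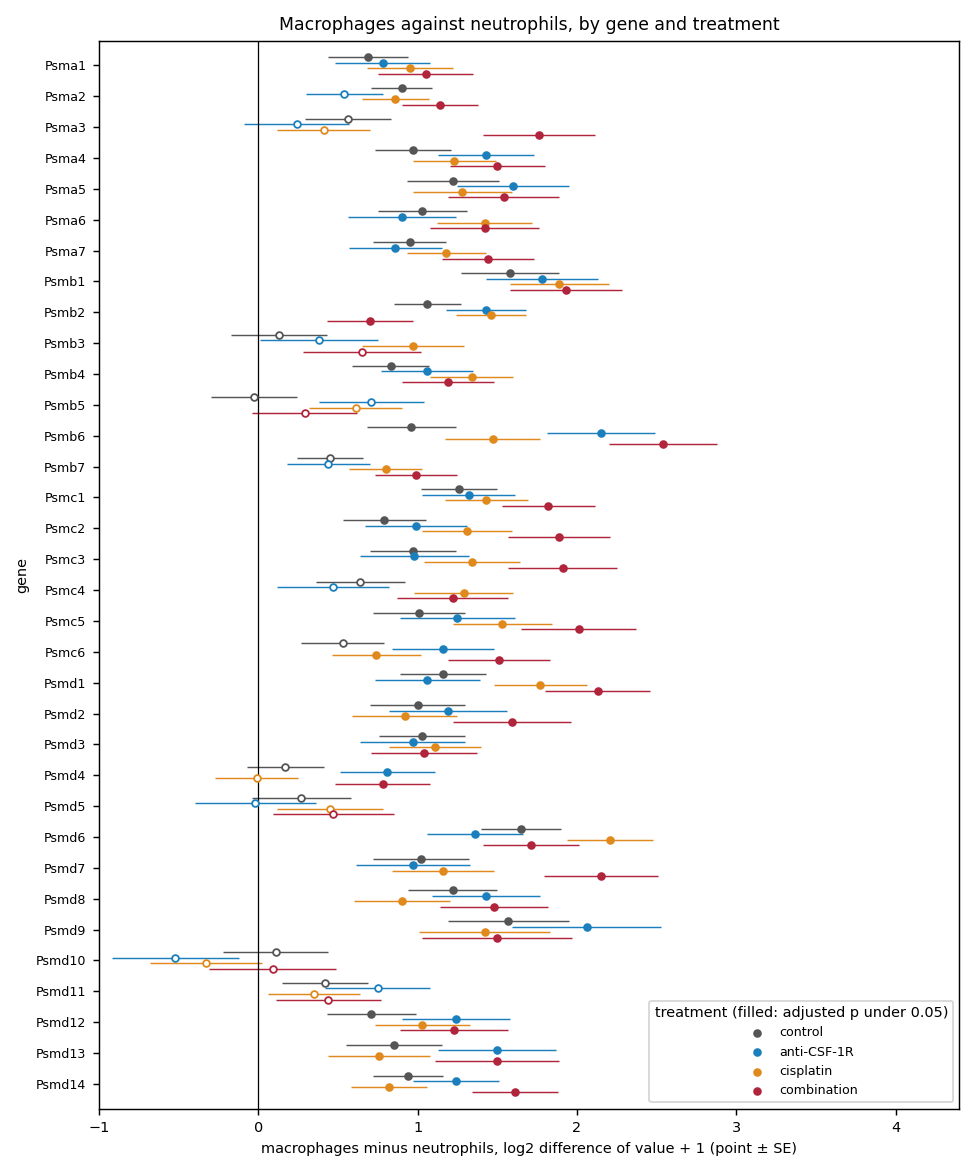
Macrophages minus neutrophils in log2 of value + 1 (points, bars are SE) for each gene and treatment, with filled points for adjusted p under 0.05. Nearly all points lie right of 0, from -0.52 for Psmd10 under anti-CSF-1R to 2.54 for Psmb6 under the combination.

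Among genes that work with the proteasome both directions occurred. Of 39 measured genes from 6 lists (immunoproteasome subunits, activators and inhibitor, assembly factors, ubiquitin handling, transcription factors and their processing, ubiquitin), 16 were higher and 3 lower in control macrophages than in control neutrophils. Of all genes 26.3% were higher and 24.6% lower there. The counts were 11 and 2 under anti-CSF-1R (21.2% of all genes in each direction), 12 and 4 under cisplatin (29.2% and 27.3%), and 11 and 2 under the combination (22.7% and 23.8%). Usp14, the deubiquitinase that docks on the cap, passed in all 4, from 1.25 ± 0.32 in control tumours to 1.96 ± 0.34 under cisplatin (log2 ± SE, adjusted p at most 0.00195, limma). Rad23b, a shuttle for ubiquitinated proteins, also passed in all 4 (0.78 to 1.46), and the unfoldase Vcp in 3. Rps27a, which encodes ubiquitin joined to a ribosomal protein, was higher in macrophages in all 4 treatments, by 1.44 to 1.64.

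Nfe2l2, which binds the same response element as Nfe2l1, was lower in macrophages. It averaged 3786 ± 952 (SD, n = 4) in control neutrophils and 1549 ± 404 (SD, n = 4) in control macrophages, a difference of -1.30 ± 0.24 (adjusted p = 0.000102, limma). The difference was -1.56, -1.42 and -1.98 under anti-CSF-1R, cisplatin and the combination, and passed each time. Macrophages lay below neutrophils in every library. Nfe2l1 itself passed in none of the 4 treatments. It averaged 130.2 ± 15.5 in control neutrophils and 143 ± 20 in control macrophages (SD, n = 4 each), a difference of 0.13 ± 0.19 (adjusted p = 0.56, limma), and the groups overlapped. The other differences of Nfe2l1 were 0.16 under anti-CSF-1R, 0.33 under cisplatin and -0.19 under the combination.

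Within neutrophils no treatment moved a member past the threshold. Under the combination against control 0 of 34 members passed (limma, and 0 by limma-voom), beside 0.713% of all genes. The member median was -0.34 beside 0.02 over all genes. Of the 34 members 30 lay below 0, while 52% of all genes lay above 0. At an unadjusted p under 0.05, 9 members were lower, beside 6.12% of all genes. None was higher at that level, beside 8.68% of all genes. Psmd1 had the smallest p: it read 96.3, 127, 81.4 and 75.9 in control neutrophils and 64.4, 29, 35.9 and 39.1 under the combination. The groups did not overlap, and the difference was -1.19 ± 0.32 (adjusted p = 0.0739, and 0.0589 to 0.282 over the alternatives, limma). Psmc5, an ATPase, read 90.3, 51.7, 72.2 and 93.5 in control neutrophils against 24.9, 25.2, 47.4 and 64.5, a difference of -0.99 ± 0.34 (adjusted p = 0.168, limma), and its groups overlapped. All 3 catalytic genes lay below 0, at -0.87 for Psmb5, -0.73 for Psmb6 and -0.34 for Psmb7, with none past the threshold. By role the medians were -0.67 for the ATPases, -0.53 for the beta ring, -0.31 for the Psmd genes and -0.18 for the alpha ring. These values changed when cells with several possible places were left out. With values of a single possible place alone, 8 members could be tested, and their median was 0.08 beside 0.17 over all genes. The same 8 genes gave -0.32 with all values. That setting also leaves fewer libraries per gene, and the part of this and of the restored points in the change was not tested. Restoring the points without knowledge of the groups gave a median of -0.34.

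The other neutrophil comparisons gave smaller medians. Against control, anti-CSF-1R gave -0.15 and cisplatin -0.23, beside 0.01 and 0.03 over all genes, and 0 members passed in either (0.11% and 0.0659% of all genes passed). At an unadjusted p under 0.05, 2 and 3 members were lower and 0 higher, beside 3.93% and 3.42% of all genes that were lower and 4.69% and 4.03% that were higher. Psmd4, a ubiquitin receptor of the cap, read 56.3, 48.8, 79.6 and 66.6 in controls and 37.5, 35.2, 46.3 and 34.3 under anti-CSF-1R (-0.68 ± 0.23, adjusted p = 0.391, limma). The groups did not overlap. Psmb5 passed in neither comparison, at -0.78 ± 0.30 (adjusted p = 0.45) under anti-CSF-1R at 36.6, 27.4, 37.1 and 24.3, and -0.87 ± 0.33 (adjusted p = 0.574, limma) under cisplatin at 24.6, 23.7 and 41.4. Psmd6 under cisplatin differed by -0.76 ± 0.31 (adjusted p = 0.601, limma). These comparisons share the control libraries, so their values are not independent.

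Against the single agents the combination medians of neutrophils were also below 0, and no member passed. Against cisplatin the member median was -0.17 (0.01 over all genes), 0 members passed (0.0769% of all genes) and 0 had an unadjusted p under 0.05, beside 4.59% of all genes higher and 3.83% lower. Against anti-CSF-1R the median was -0.24 (0.02 over all genes), 0 passed (0.011%). At an unadjusted p under 0.05, 4 were lower and 0 higher, beside 3.79% and 5.68% of all genes. The smallest p values there belonged to Psmd1 (-1.05 ± 0.32, adjusted p = 0.296) and Psma3 (-0.99 ± 0.33, adjusted p = 0.338, limma), the latter at 23.2, 21.5, 29 and 17.7 under anti-CSF-1R. Against cisplatin they were Psma3 (-0.69 ± 0.35, adjusted p = 0.638, with cisplatin libraries at 24.6, 16.9 and 14.3) and Psmd4 (-0.47 ± 0.25, adjusted p = 0.666, limma, with cisplatin at 66.4, 71.1 and 61.3 and the combination at 43.6, 40.7, 60.4 and 47.4).

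Marker sums of the same neutrophil libraries had ranges that overlapped between the groups, though neutrophil and monocyte sums mostly lay higher under the combination. The mean member level of a library, as the log2 deviation from the mean over neutrophil libraries, was 0.09 to 0.33 in controls and -0.51 to 0.10 under the combination, the lowest in combination replicate 2. Neutrophil markers summed to 24237 to 45845 in controls and to 37723, 101738, 48551 and 54152 under the combination. Macrophage markers summed to 3349 to 5333 in controls and 2671 to 4716 under the combination. Combination replicate 2 had the highest neutrophil sum and the lowest macrophage sum of these libraries. The 3 monocyte markers summed to 156 to 469 in controls and to 418 to 1758 under the combination, the highest in combination replicate 2, the library with the lowest member level. All 11 measured genes of the neutrophil and macrophage lists and the 3 of the monocyte list were above the lowest listed value in some library of these groups. The part of these cell markers in the lower proteasome values was not tested. Without combination replicate 2 and cisplatin replicate 2 together, the combination median against control was -0.29.

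In macrophages the members as a group stayed near 0 against control under all treatments. Against control the member medians were -0.03 under anti-CSF-1R, -0.06 under cisplatin and 0.09 under the combination, beside 0.03 under anti-CSF-1R and 0.00 under the combination over all genes. No member passed in any of the 3 (limma, and 0 by limma-voom), beside 3.13%, 0.391% and 2.89% of all genes. At an unadjusted p under 0.05, anti-CSF-1R had 2 members higher and 3 lower, beside 10.7% and 9.96% of all genes. Cisplatin had 0 in either direction (5.41% of all genes higher, 4.28% lower) and the combination 1 higher and 0 lower (8.77% and 8.97%). The smallest p values under cisplatin belonged to chaperones, Psmd9 at 16.2, 21.6, 10.1 and 12.4 against 18.8, 38.1, 16.5 and 25.1 in controls (-0.65 ± 0.31, adjusted p = 0.523) and Psmd10 at 35.4, 26.1, 31.6 and 51.8 (-0.55 ± 0.27, adjusted p = 0.548, limma).

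Psmb6 had the smallest p of all members in 2 macrophage comparisons, the combination against control and against cisplatin. The 2 anti-CSF-1R and 2 combination libraries read 188 to 248, the 4 cisplatin libraries 100.4, 110.1, 127 and 89.1, and 3 of the 4 controls 82, 99 and 124, with control replicate 4 at 241. The combination exceeded cisplatin by 1.08 ± 0.34 (adjusted p = 0.095, limma), with no overlap. That comparison had 0 members past the threshold beside 3.49% of all genes, and 1 higher and 1 lower at an unadjusted p under 0.05 (9.25% and 10.4% of all genes). Its member median was 0.15 beside -0.01 over all genes, with 24 of 34 members above 0, beside 49.5% of all genes. A fit of those 2 groups alone gave Psmb6 an adjusted p of 0.0229, past the threshold. Against control the estimates were 0.74 ± 0.34 under anti-CSF-1R (adjusted p = 0.229) and 0.84 ± 0.34 under the combination (adjusted p = 0.208, limma). Without control replicate 4 they were 1.06 (adjusted p = 0.0246) and 1.16 (adjusted p = 0.0142, limma), both past the threshold, so that 1 library decides these calls. It also had the highest mean level of all members in macrophages, 0.28 above the macrophage mean, with 29 of 34 members above their own means. Among its partners of the barrel Psmb5 did not follow, at 51.7 and 50.6 under anti-CSF-1R and 38.9 and 32.7 under the combination. Eosinophil markers also stood higher in the anti-CSF-1R and combination libraries. The 3 of 5 that were measured summed to 94.9 and 65.2 under anti-CSF-1R and to 91.7 and 208 under the combination, beside 3 to 18.5 in control and 3.48 to 6.67 in cisplatin macrophages. Neutrophil markers summed to 1048 to 1508 in those 4 libraries, beside 196 to 392 under cisplatin and 255 to 1567 in controls. Control replicate 4, also high in Psmb6, had an eosinophil sum of 10.0. The part of these cells in the Psmb6 values was not tested.

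Other values in the CSF-1R-blocked macrophages rested on few libraries. Psmd5 read 26.6, 20.3, 18.6 and 23.4 in controls and 17.8 and 7.34 under anti-CSF-1R (-0.88 ± 0.33, adjusted p = 0.15, limma), and Psmd6 88.1 and 44.9 there (-0.72 ± 0.27, adjusted p = 0.151, limma). Replicate 2 gave the low value of both, and with it as the lone anti-CSF-1R library, assumed to vary like the other groups, both passed (-1.46 and -1.20, adjusted p = 0.0291 and 0.0315, limma). The same library held 6 measured mast cell and basophil markers at a sum of 7858, beside 7.39 in replicate 1, and the part of those cells in its values was not tested. Psmc6 read 119 and 131 under the combination and 74.6, 86, 64 and 109 in controls (0.60 ± 0.29, adjusted p = 0.309, limma). Psmb3 read 29.2 and 34.8 under the combination and 42.8, 40.9, 57.9 and 50.2 under cisplatin (-0.56 ± 0.25, adjusted p = 0.236, limma). The combination against anti-CSF-1R had 0 members past the threshold, beside 0% of all genes, a median of 0.08, and 1 member higher and 0 lower at an unadjusted p under 0.05 (4.22% and 4.6% of all genes). Psmc3 at 92.1 and 89.5 against 47.4 and 70.1 (0.65 ± 0.29, adjusted p = 0.558) and Psmd5 at 19.8 and 21.3 (0.78 ± 0.38, adjusted p = 0.572, limma) had its smallest p values.

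**Figure D5:**
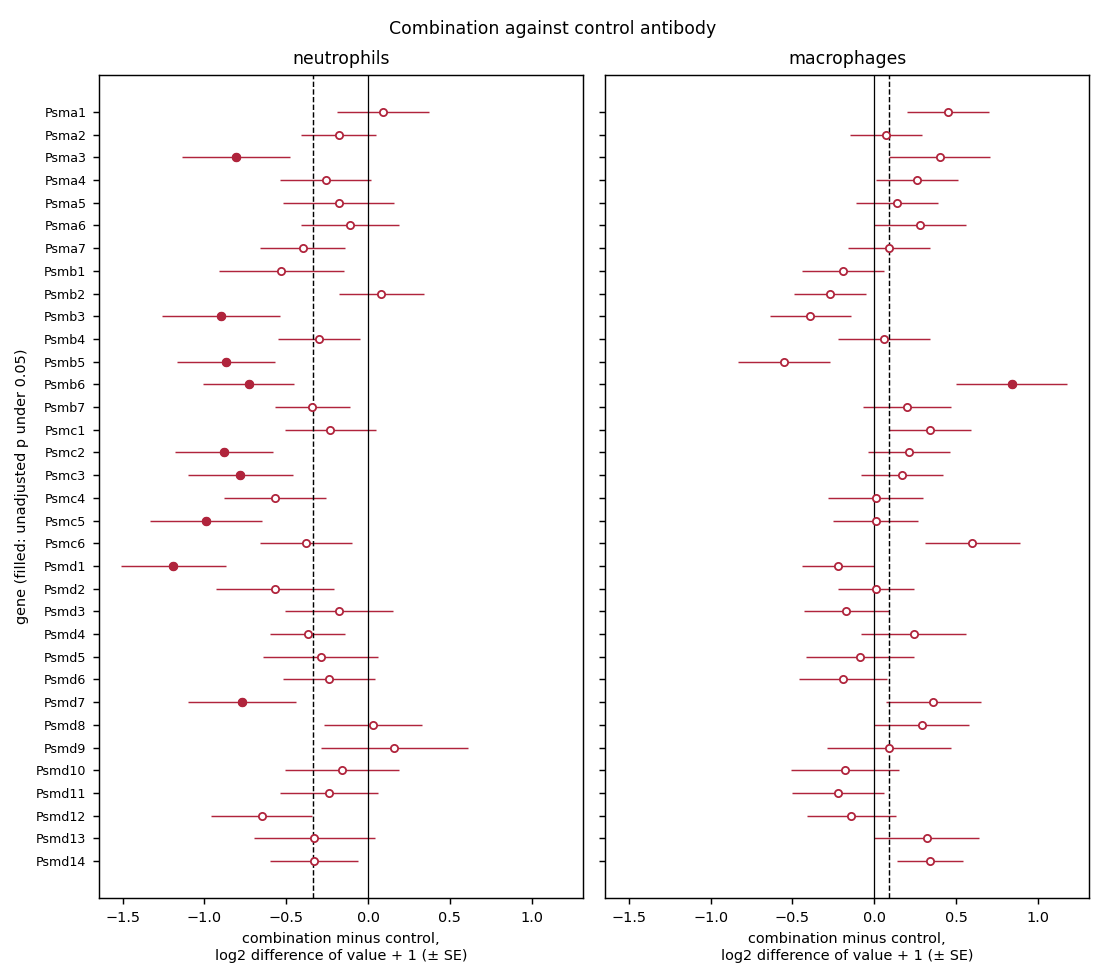
Combination minus control antibody in log2 of value + 1 (points, bars are SE) for each gene in neutrophils (left) and macrophages (right), with filled points for an unadjusted p under 0.05 and a dashed line at the median of the 34 genes. The neutrophil median is -0.34 with 30 of 34 points below 0, and the macrophage median is 0.09 with Psmb6 at 0.84; no point passed the adjusted threshold.

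Whether treatment acted differently in the cell types was tested as an interaction over all 8 groups. For the combination the effect in macrophages minus that in neutrophils had a member median of 0.51 beside 0.01 over all genes. Above 0 were 31 of 34 members, beside 50.9% of all genes. None passed the threshold (0.0103% of all genes did), and 8 were higher at an unadjusted p under 0.05, beside 3.75% of all genes, and 0 lower (4.03%). With values of a single possible place alone, the median over 8 members was 0.11. Psmb6 had the largest value, 1.58 ± 0.44 (95% interval 0.67 to 2.49, adjusted p = 0.213, limma), and without macrophage control replicate 4 it was 1.89 and passed (adjusted p = 0.0458). Psma3 followed at 1.20 ± 0.44 (adjusted p = 0.427, limma). For anti-CSF-1R the median was 0.19 and for cisplatin 0.24, with 0 members past the threshold in each (0.164% and 0.0506% of all genes) and 1 and 0 members higher and 0 lower at an unadjusted p under 0.05. All-gene shares at that level were 4.7% and 3.09% higher and 4.18% and 3.42% lower. Psmb6 had the smallest p for anti-CSF-1R (1.18 ± 0.44, adjusted p = 0.384) and Psmb3 for cisplatin (0.84 ± 0.44, adjusted p = 0.809, limma). The larger gap between the cell types under the combination is therefore not shown to differ from that in control tumours for any single member.

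None of the 38 or 39 tested genes of the 6 companion lists passed in a treatment comparison within a cell type either (limma), with 0 to 9 of them at an unadjusted p under 0.05. The 9 were in neutrophils under the combination against control, where 8.68% of all genes were higher and 6.12% lower at that level. Immunoproteasome genes were also set beside their standard counterparts in neutrophils. The log2 ratio of Psmb9 to Psmb6 was 0.48 to 1.57 in 3 control libraries and 2.13 to 3.73 in 4 combination libraries. It was 1.27 to 2.62 in 3 anti-CSF-1R and 1.66 to 2.54 in 2 cisplatin libraries, overlapping the combination. Psmb9 averaged 134 ± 86 (SD, n = 3) in controls and 320.5 ± 157 (SD, n = 4) under the combination. Psmb6 averaged 64 ± 9.59 and 39.2 ± 11.2 there (SD, n = 4 each). For Psmb8 and Psmb5 the ratio was 0.43 to 1.62 in controls and 1.09 to 3.50 under the combination, in 4 libraries each, and these ranges overlapped. For Psmb10 and Psmb7 it was -2.51 to -0.28 in 4 control libraries and -0.93 to 0.26 in 3 combination libraries, overlapping too. In macrophages the ratio of Psmb9 to Psmb6 averaged 0.39 ± 0.23 (SD, n = 4) in controls and 0.38 ± 0.80 (SD, n = 2) under the combination. For Psmb8 and Psmb5 the macrophage ratio was 0.15 to 1.79 in 4 control libraries and 2.14 to 3.17 in 2 combination libraries, without overlap. It was 1.19 to 1.57 in 2 anti-CSF-1R libraries and 1.01 to 2.20 in 4 cisplatin libraries, the latter overlapping the combination. For Psmb10 and Psmb7 it was -1.82 to 0.06 in 4 control libraries and -0.77 in 1 combination library. These ratios compare groups and not levels of the genes, and they were not tested.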

How the data were processed

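RNA of sorted intratumoral neutrophils and macrophages was made into libraries from 10 ng of total RNA, per the labels' protocols. The mm10 build and TopHat2 2.0.11 are among the entries in the submitters' processing notes, beside DESeq2, Partek 6.6, R 3.3.1 and CASAVA 1.8. The role of each tool was not stated. The deposited table holds a normalised signal, with 1 as the lowest value. Its large values come in steps of 1 read per library, within 0.0246 reads, so they are read counts scaled per library by the authors.

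Decimal points were lost in the deposited table, in a form that 91.1% of 269892 cells allow. They were restored by requiring whole reads, and where several places did (67.1% of cells) by the fit of each place to the gene's other libraries in a negative binomial model with the groups. Cells with a probability under 0.95 (4.82% of all, 0.436% of member cells) were left out. The model expected 0.114% of member cells to be wrong. The model uses the groups, so it can favour like values within a group. The decoding and the test were tested on simulated data. For anti-CSF-1R against control, 29% of simulated 2-fold changes passed in neutrophils and 8% in macrophages. Of 4-fold changes 84% and 58% passed. A member that did not pass within a cell type can therefore still have changed. Of the genes called in that simulation, 7 of 120 in neutrophils and 10 of 72 in macrophages had not been changed.

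Testing was done with limma 3.58.1 (R 4.3.3; lmFit, eBayes with trend, two-sided) after log2(value + 1), for genes that reached 10 in 2 or more libraries of a fit. P-values were adjusted by Benjamini-Hochberg over all genes. The fold changes are on that scale, which understates changes of low genes. The 4 groups of a cell type shared 1 fit, and all 8 groups shared 1 for comparisons between cell types. A missing cell drops out of its gene's fit. Replicates of a group correlated across genes at 0.907 to 0.965 on log2 values and none were duplicates. Labels number no replicates, and numbers follow the sample order.

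Named were, in each comparison, at most 6 members past the threshold with the smallest p, or else the 2 with the smallest p, and Psmb5, Psmb6 and Psmb7. In the cell type comparisons Psma3, Psmb3, Psmd5, Psmd9, Psmd10 and Psmd11 were added after their values were seen, as were Usp14, Rad23b, Vcp, Rps27a and Nfe2l2 among the companion genes past the threshold. Some companion genes are not reported here by name. The members and lists were chosen with earlier results of these data known. Levels per kilobase use the principal transcript, since the planned exon lengths joined exons of all transcripts. Alternatives covered the pseudocount, the filter, scaling, decoding, the groups fitted, limma-voom and leaving out libraries. Positions are from GENCODE vM21 and RefSeq (GRCm38.p6). Antisense overlaps over 100 bases touch Psma4, Psmb7, Psmc3, Psmd1, Psmd9 and Psmd13. Near-identical transcripts exist elsewhere for Psma3, Psma4, Psma5, Psmb3, Psmb5, Psmc1, Psmd2 and Psmd11, and Psmd1 shares its own locus with Gm21972 on the same strand. The counts of these genes are less certain.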

Additional observations from a re-analysis of the deposited data

Results flagged for a closer look

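In groups of 4 libraries, 7 of 171 gene groups or group levels had 1 library apart from the other 3, and chance alone gives about 1 in 20. Psma1 was low in neutrophil control replicate 1 at 80.0, with the others at 101 to 104. Psma4 was low in neutrophil control replicate 2 at 26.6, with the others at 40.0 to 40.7. Psmb5 was low in macrophage control replicate 1 at 36.2, with the others at 58.6 to 60.0. Psmc6 was low in macrophage cisplatin replicate 2 at 65.8, with the others at 100.4 to 103. Psmd13 was high in macrophage control replicate 4 at 45.2, with the others at 31.7 to 33.3. Psmd7 was low in neutrophil combination replicate 2 at 15.5, with the others at 34.3 to 39.5. The mean level of all members was low in macrophage cisplatin replicate 2, at -0.30 on the log2 scale relative to the macrophage mean, with the others at 0.01 to 0.06.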

How the results depend on the processing

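No paired analysis was possible because the labels number no replicates. The planned count test was not run, since the deposited form of the values does not pass as counts; limma-voom on decoded reads was chosen in its place after seeing the data and changed the number of members called in 1 comparison by 2 (26 against 28 under cisplatin). Over all alternatives, 288 counts of members called stayed within 1.5 times and 11 did not, and 287 member medians moved by less than the spread between libraries and 12 by more. In the treatment and interaction comparisons the reported count was 0, and a count that stayed at 0 was taken as within 1.5 times. Using only cells with a single possible place left 5 to 15 members to test (18 to 23 within macrophages) and gave 9, 3, 5 and 9 of 15, 9, 10 and 11 members called between cell types in control, anti-CSF-1R, cisplatin and combination tumours. Medians there were 0.80 for anti-CSF-1R and 1.13 for the combination. Within neutrophils they were 0.05, -0.11 and 0.08 for anti-CSF-1R, cisplatin and the combination against control, and for the combination -0.31 against cisplatin and 0.05 against anti-CSF-1R (with all values the same members gave -0.02, -0.28, -0.32, -0.03 and -0.21). Interaction medians were -0.05, -0.04 and 0.11 (-0.05, 0.35 and 0.44 with all values of those members). Fewer libraries and members enter by construction, and the part of that in the change was not tested. A pseudocount of 10 gave medians of 0.90 (cisplatin) and 1.25 (combination) between cell types. Quantile normalisation gave 0.16 for macrophage combination against anti-CSF-1R, and leaving out 1 library each gave 0.06 to 0.15. A fit of only the groups compared called 1 member, Psmb6, for macrophage combination against cisplatin. With 1 library left out each time, members called were 0 to 2 for macrophage anti-CSF-1R against control, 0 to 1 for macrophage combination against control and for the combination interaction, and 14 to 25 between cell types under anti-CSF-1R. Psmb5 between cell types in control tumours ranged from -0.12 to 0.14, with 0.08 and 0.14 above 0. Of the members called between cell types, 20 of 24, 10 of 25, 21 of 28 and 22 of 29 were called whichever library was left out. TMM scaling moved the median of all genes under anti-CSF-1R by -0.11. Over all genes, the number called varied by more than 1.5 times with the setting. In neutrophils it was 0 to 14 for anti-CSF-1R (10 as reported), 0 to 14 for cisplatin (6) and 0 to 146 for the combination (65), each against control, and for the combination 0 to 19 against cisplatin (7) and 0 to 7 against anti-CSF-1R (1). In macrophages the same comparisons gave 17 to 542 (284), 1 to 136 (36), 13 to 606 (262), 5 to 584 (316) and 0 to 22 (0). The interactions gave 1 to 54 (16), 0 to 11 (5) and 0 to 35 (1). Between cell types the single-place setting called 1226 to 1685 genes, beside 4151 to 5590 as reported.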
